A study of Caenorhabditis elegans with 8 samples.

Results

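The vacuolar proton pump (V-ATPase) and a set of lysosomal membrane and transport genes were examined across all 8 libraries of a study of young adult Caenorhabditis elegans on 2 bacterial diets. The set held 32 genes, of 41560 rows in the deposited table, chosen by name: 20 pump genes (9 for the V1 sector, 11 for the V0 sector and its accessory subunit) and 12 lysosomal genes. The question put to them was whether lysosomal genes as a class are lower on food lacking hns. Of the 32, 31 passed the filter on low values and were tested. The Niemann-Pick gene ncr-2 did not pass and is described by its values only.

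The V-ATPase is a rotary pump that spends ATP to move protons into lysosomes, endosomes and other compartments. Its cytosolic V1 sector binds and hydrolyses ATP, and its membrane-embedded V0 sector carries the protons. The acid it makes activates lysosomal hydrolases and drives transporters that return amino acids, sugars and lipids to the cytosol. In the worm intestine, lysosomes and lysosome-related gut granules digest and store material from the bacterial diet, while in the hypodermis and excretory canal the pump also serves secretion and water balance.

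RNA came from whole worms grown on NGM plates at 20 °C. The wild type was strain N2 and the mutant was daf-16(mgDf50), an allele of the gene for the FOXO transcription factor downstream of insulin-like signalling. Each genotype was fed either E. coli BW25113, a K-12 laboratory strain, or the hns mutant of BW25113, which lacks the DNA-binding repressor H-NS. All groups thus shared the BW25113 background of the food, and each held 2 libraries made with the Lexogen SENSE mRNA kit. Nothing in the labels says that the 2 libraries of a group came from separate cultures. The p-values therefore reflect only how far such libraries differ, and that difference may be technical. The values were FPKM, fragments scaled to transcript length and library size, so levels can be compared between genes only approximately. In whole worms, fewer cells of a type and less RNA per cell cannot be told apart.

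The sum of FPKM over all rows was 2128460 to 2508481 in a library, and the 32 genes made up 0.368% to 0.422% of that sum. The daf-16 gene was at 69.9 to 77.4 FPKM in the wild-type libraries and at 15.8 to 19.2 in the mutant libraries, lower in 4 of 4. Its fitted log2 difference between genotypes was -1.99 ± 0.08 (SE) on BW25113 and -2.05 ± 0.08 on hns. Depth is not stated. An approximate estimate from the lowest values gave 20300000 to 22400000 fragments per library. At that depth each pump gene rested on at least 1748 fragments in every library, against 85 to 166 for spin-2 and 33 to 61 for ncr-2.

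The levels of the pump genes differed far more between subunits than between libraries. Median FPKM over the 8 libraries ran from 1832 for vha-2, a gene for the proton-carrying c subunit, down to 48.2 for vha-7, one of 4 genes for the a subunit. Among the V1 genes the order was vha-9 (F subunit) at a median of 899 FPKM, vha-10 (G) at 693, vha-8 (E) at 614, vha-14 (D) at 481, vha-13 (the catalytic A subunit) at 277, vha-11 (C) at 224, vha-12 (B) at 198, and the H-subunit genes vha-15 and vha-18 at 145 and 109. The neighbours vha-10 and vha-8, and likewise vha-11 and vha-12, overlapped in their ranges over libraries. In V0, vha-17 (e subunit) at 641 FPKM and vha-1 (c) at 630 also overlapped, followed by vha-4 (the c″ subunit) at 529, vha-16 (d) at 310, vha-3 (c) at 208 and vha-19, related to the mammalian accessory subunit Ac45, at 169, of which the last 2 overlapped.

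The lysosomal genes covered a wider range at lower levels. The LAMP-like membrane glycoprotein gene lmp-1 led with a median of 215 FPKM, followed by ctns-1, the worm cystinosin for cystine export, at 144, and nuc-1, which encodes a DNase II of the lysosome lumen and not a membrane protein, at 116. The lysine and arginine exporter gene laat-1 (73.1) and the mucolipin channel gene cup-5 (71.6) were close to each other, with overlapping ranges. Below them came the Spinster-family transporter gene spin-1 (23), glo-1 (16.9), which encodes a Rab GTPase of gut granules, and the LAMP-related gene lmp-2 (13.3). The lowest were spin-3 (7.89), the Niemann-Pick C1 homologue ncr-1 (3.84), spin-2 (3.47) and ncr-2 (0.527). Of the neighbours in this lower part, spin-1 and glo-1, glo-1 and lmp-2, and ncr-1 and spin-2 overlapped in their ranges. All 8 values of ncr-2 lay between 0.411 and 0.724 FPKM.

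**Figure D1:**
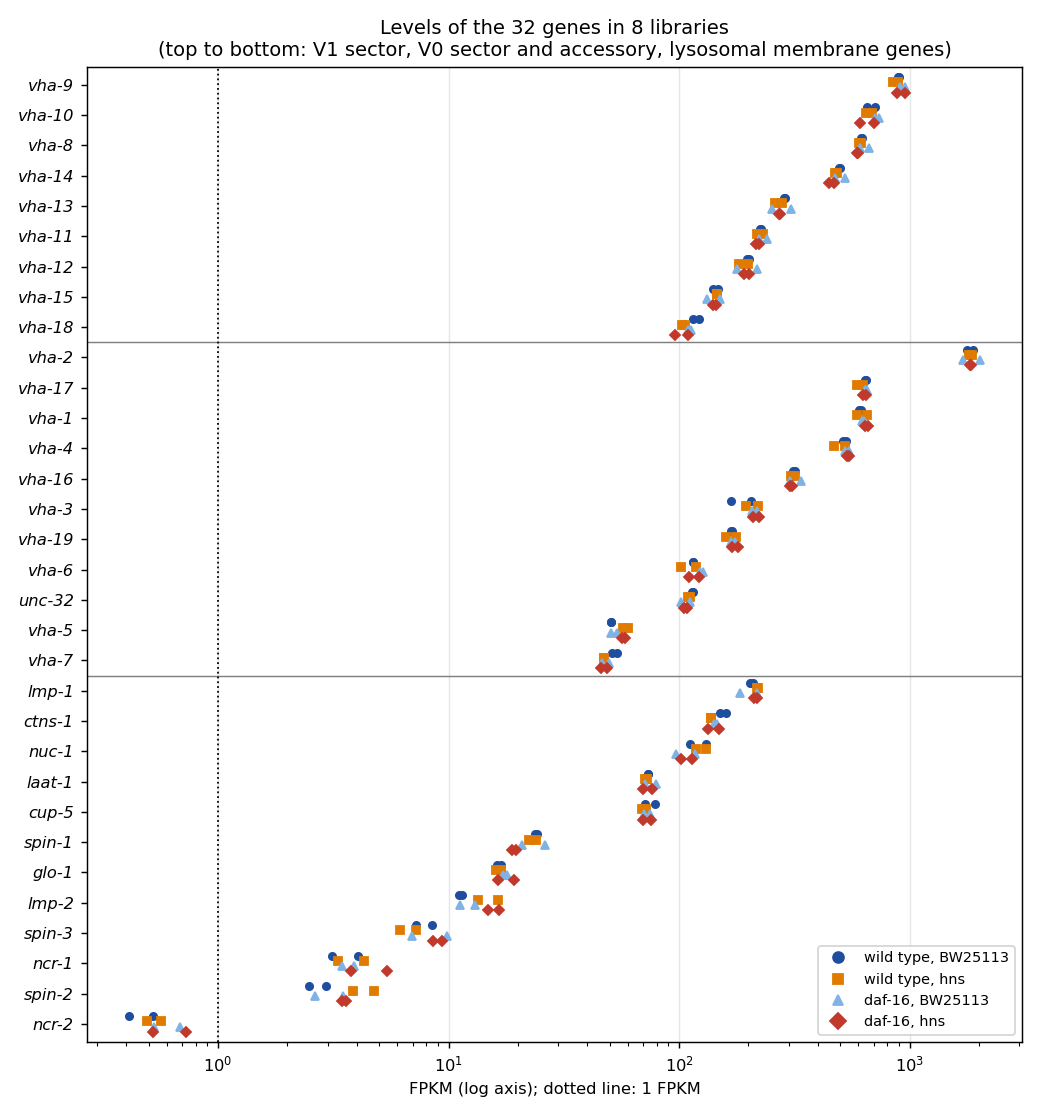
FPKM of each of the 32 genes in all 8 libraries on a log axis, ordered by sector and level, with 1 point per library and colour and shape giving the group. The points of a pump gene fall almost on top of each other, while the lysosomal genes below about 30 FPKM, except glo-1, spread more. The dotted line marks 1 FPKM.

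Variation between libraries was small for the pump. The ratio of the highest to the lowest library ran from 1.10 (vha-17) to 1.33 (vha-3) over the 20 pump genes, with a median of 1.17. Over the 11 lysosomal genes tested it ran from 1.13 (cup-5) to 1.91 (spin-2), with a median of 1.36, and the median over all tested genes above 0 in every library was 1.41. The median residual SD between replicates was 0.0738 on the log2 scale for the members, 0.130 for all genes tested and 0.0870 for genes of similar level. The libraries did not contribute evenly. Replicate 2 of daf-16 on BW25113 was the highest library for 15 of the 31 genes, and replicate 1 of the same group was the lowest for 9.

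In wild type, the ratio of mean FPKM on hns to that on BW25113 ran from 0.884 (vha-18) to 1.16 (vha-5) over the 20 pump genes and from 0.855 (spin-3) to 1.59 (spin-2) over the 11 lysosomal genes tested. None of the 31 genes passed the threshold (limma, Benjamini-Hochberg adjusted p under 0.05 over 14564 genes), where 0.872% of all genes tested did. At an unadjusted p under 0.05 there were 3 (vha-5, lmp-2 and spin-2, all higher on hns), where 15.7% of all genes did. The median log2 fold change of FPKM + 1 was -0.032, beside -0.0034 for all genes, with 10 genes above 0 and 21 below. Both hns libraries lay above both BW25113 libraries for 4 genes (vha-5, lmp-1, lmp-2 and spin-2) and below them for 9, where 25.3% and 28.9% of all genes did. The lowest adjusted p was 0.206, for vha-5.

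By sector, 8 of 9 V1 genes were below 0 in wild type, with a median of -0.04, but the count turned to 7 of 9 above 0 under quantile normalization. The most abundant V1 gene, vha-9, was at 903 and 890 FPKM on BW25113 and 851 and 895 on hns in wild type, and at 908 and 952 against 885 and 959 in daf-16. Its libraries overlapped between foods in both genotypes. The catalytic gene vha-13 stood at 287 and 285 FPKM on BW25113 and 262 and 279 on hns in wild type, and at 253 and 307 against 275 and 272 in daf-16. The hns libraries were the lower ones in wild type and lay inside the BW25113 range in daf-16. The B-subunit gene vha-12, whose product forms the ATP-binding ring together with VHA-13, was at 201 and 197 against 183 and 199 FPKM in wild type and at 178 and 218 against 200 and 191 in daf-16, overlapping in both.

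The V1 gene with the largest fitted change was vha-18, one of the H-subunit genes, whose product couples V1 to V0. Its FPKM were 114.7 and 122.0 in wild type on BW25113, 103.4 and 105.8 in wild type on hns, 109.2 and 113.1 in daf-16 on BW25113, and 96.5 and 109.5 in daf-16 on hns. The groups did not overlap in wild type and overlapped narrowly in daf-16. The fitted log2 change was -0.18 ± 0.07 (95% interval -0.36 to 0.01, limma adjusted p = 0.331) in wild type and -0.11 ± 0.07 (-0.29 to 0.07, adjusted p = 0.855) in daf-16. The partner gene vha-15 was at 141 and 147 against 146 and 146 FPKM in wild type, and vha-18 supplied 40.1% to 45.3% of the summed FPKM of the H-subunit genes. The G-subunit gene vha-10, the V1 gene with the most negative value in daf-16, was at 711 and 735 FPKM on BW25113 against 701 and 607 on hns there, and at 707 and 656 against 684 and 648 in wild type. Its 2 daf-16 foods did not overlap, its wild-type foods did, and the fitted changes were -0.15 ± 0.09 (adjusted p = 0.837) and -0.03 ± 0.09 (adjusted p = 0.854).

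In the V0 sector, 4 of 11 genes were above 0 and 7 below in wild type (median -0.02), and under quantile normalization 9 were above. The main gene of the proton-carrying ring, vha-2, was at 1885 and 1778 FPKM on BW25113 and 1816 and 1860 on hns in wild type, and at 1712 and 2020 against 1823 and 1841 in daf-16, with both hns libraries inside the BW25113 range each time. Within the summed FPKM of the c and c″ genes, vha-2 supplied 55.8% to 59.0%, vha-1 18.6% to 20.3%, vha-4 15.1% to 17.2% and vha-3 5.43% to 7.13% in the 8 libraries. VHA-2 and VHA-3 are near-identical proteins and vha-1 neighbours vha-2 in an operon, as vha-3 does vha-11, so the division of reads among these genes is uncertain.

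The a subunit, which anchors the pump and directs it to particular membranes, is encoded by 4 genes: unc-32, best known from neurons, vha-6 of the intestinal apical membrane, and vha-5 and vha-7, both of epidermal tissues. Their median FPKM were 110 for unc-32, 116 for vha-6, 55.3 for vha-5 and 48.2 for vha-7, and the sum ranged from 316 to 341 over the libraries. Within that sum, vha-5 was the gene whose share separated the foods in both genotypes. It was 15.3% and 15.1% in wild type on BW25113 and 17.8% and 18.03% on hns, and 15.7% and 15.7% in daf-16 on BW25113 and 17.6% and 17.6% on hns. A share of this kind does not depend on library scaling. The share of unc-32 (31.5% to 34.7%) overlapped between foods in both genotypes, that of vha-6 (32.3% to 38.4%) in wild type and that of vha-7 (13.9% to 16.04%) in daf-16. The vha-5 share was singled out after its values were seen and was not tested.

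**Figure D2:**
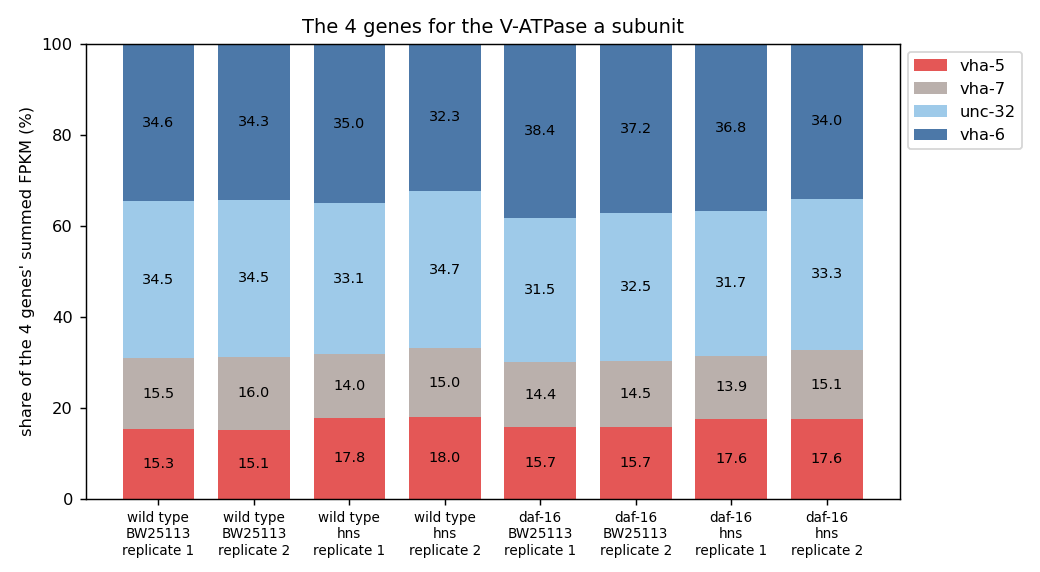
Share of the summed FPKM of the 4 a-subunit genes taken by each gene, in percent, with 1 bar per library and the share printed in each segment. The vha-5 segment is 15.1% to 15.7% in the 4 BW25113 libraries and 17.6% to 18.03% in the 4 hns libraries, in both genotypes.

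In FPKM, vha-5 was at 50.6 and 50.5 in wild type on BW25113, 60.0 and 57.0 in wild type on hns, 50.4 and 53.8 in daf-16 on BW25113, and 58.2 and 56.8 in daf-16 on hns. All 4 hns libraries lay above all 4 BW25113 libraries, which was not counted over all genes. Of all genes tested, 11.1% were higher on hns without overlap within each genotype. The fitted log2 change was 0.21 ± 0.06 (95% interval 0.06 to 0.36, limma adjusted p = 0.206) in wild type and 0.14 ± 0.06 (-0.01 to 0.29, adjusted p = 0.78) in daf-16, so neither passed. These intervals, like all others here, are not adjusted for the number of genes. The intestinal gene vha-6 was at 114 and 115 FPKM on BW25113 against 118 and 102 on hns in wild type, and at 124 and 127 against 122 and 110 in daf-16. Its fitted changes were -0.06 ± 0.09 and -0.11 ± 0.09, with adjusted p of 0.707 and 0.855. The gene unc-32 was at 114 and 115 against 112 and 110 FPKM in wild type and at 102 and 111 against 105 and 108 in daf-16. The second epidermal gene, vha-7, was at 51.4 and 53.6 FPKM on BW25113 and 47.2 and 47.5 on hns in wild type, a fitted change of -0.15 ± 0.07 (adjusted p = 0.348), and overlapped between foods in daf-16 (46.4 and 49.7 against 46.0 and 48.9). Thus vha-5 and vha-7 had fitted values of opposite sign in wild type, and neither passed.

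Of the lysosomal membrane genes, 5 were above 0 and 6 below in wild type, with a median of -0.01. The 2 largest positive values belonged to genes of low level. The gene lmp-2 was at 11.5 and 11.1 FPKM in wild-type worms on BW25113, 16.4 and 13.5 in wild type on hns, 13.1 and 11.2 in daf-16 on BW25113, and 14.8 and 16.5 in daf-16 on hns. Each hns library was above each BW25113 library in both genotypes, as for 11.1% of all genes tested when compared within each genotype. The fitted log2 change was 0.37 ± 0.13 (95% interval 0.06 to 0.69, adjusted p = 0.262) in wild type and 0.35 ± 0.13 (0.03 to 0.66, adjusted p = 0.714) in daf-16, by limma. The transporter gene spin-2 was at 2.94 and 2.49 FPKM in wild-type worms on BW25113 and 4.75 and 3.85 on hns, and at 3.49 and 2.64 against 3.61 and 3.46 in daf-16. The foods were separate in wild type and overlapped in daf-16, with fitted changes of 0.51 ± 0.17 (0.10 to 0.92, adjusted p = 0.242) and 0.17 ± 0.17 (-0.25 to 0.58, adjusted p = 0.875). On the log2(FPKM + 1) scale the change of so low a gene is understated: the ratio of its mean FPKM in wild type was 1.59.

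The other Spinster genes, unlike spin-2, overlapped between foods in wild type, and no Spinster gene passed in either genotype. The gene spin-1, needed for recycling of lysosomes, was at 23.7 and 24.3 FPKM on BW25113 and 24.0 and 22.3 on hns in wild type, and at 20.8 and 26.2 against 19.7 and 18.9 in daf-16. It overlapped between foods in wild type and was lower in both hns libraries in daf-16, with a fitted change there of -0.26 ± 0.12 (-0.55 to 0.02, limma adjusted p = 0.784). The gene spin-3 was at 7.21 and 8.52 against 6.18 and 7.26 FPKM in wild type and at 6.91 and 9.82 against 8.54 and 9.40 in daf-16. The fitted change was -0.20 ± 0.18 (adjusted p = 0.563) in wild type and 0.11 ± 0.18 (adjusted p = 0.919) in daf-16, and the groups overlapped in both. The cholesterol transporter gene ncr-1 was at 4.04 and 3.13 against 4.28 and 3.31 FPKM in wild type and at 3.90 and 3.44 against 5.40 and 3.79 in daf-16. Its libraries overlapped in both genotypes, and the fitted change in daf-16 was 0.25 ± 0.21 (adjusted p = 0.855).

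The lysosomal genes of higher level had ratios of the highest to the lowest library of at most 1.36 (nuc-1). Those of lower level had larger ratios, except glo-1 (1.20). The gene lmp-1, often used as a lysosome marker, was at 210 and 204 FPKM in wild-type worms on BW25113, 220 and 217 in wild type on hns, 184 and 217 in daf-16 on BW25113 and 212 and 218 in daf-16 on hns. Its hns values were slightly higher in wild type, without overlap, and the fitted changes were 0.08 ± 0.08 (-0.12 to 0.28) and 0.11 ± 0.08 (-0.10 to 0.31). The cystine exporter gene ctns-1 was at 150 and 160 FPKM on BW25113 and 138 and 138 on hns in wild type, and at 142.3 and 145.5 against 134 and 149 in daf-16. It was the lower on hns in wild type without overlap, with a fitted change of -0.17 ± 0.07 (adjusted p = 0.318). For laat-1, cup-5, glo-1 and nuc-1 the fitted food change lay between -0.08 and 0.05 in both genotypes. None of the 11 lysosomal genes tested passed in either direction.

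**Figure D3:**
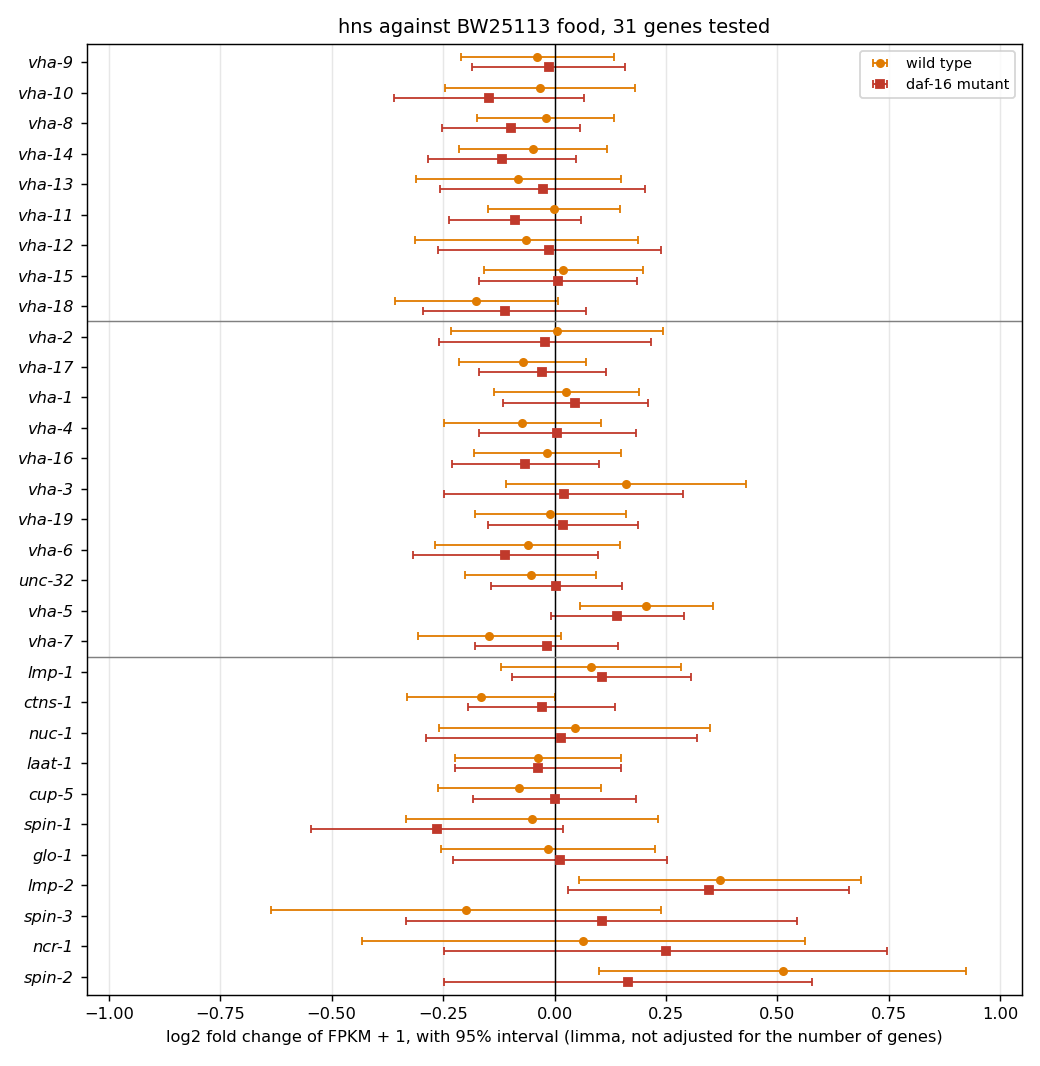
Log2 fold change of FPKM + 1 on hns against BW25113 food for the 31 genes tested, in wild type and in daf-16, with 95% limma intervals that are not adjusted for the number of genes. Most intervals include 0; those of vha-5, lmp-2 and spin-2 in wild type and of lmp-2 in daf-16 lie above it, and none of the genes passed the adjusted threshold.

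In daf-16 the same food comparison gave a median of -0.011 over the members, beside -0.0052 for all genes, with 15 genes above 0 and 16 below. By limma none passed, where 0.405% of all genes did, and 1 (lmp-2) had an unadjusted p under 0.05, where 6.5% of all genes did. Both hns libraries were above both BW25113 libraries for 3 genes (vha-5, lmp-2 and vha-1) and below for 6 (vha-6, vha-8, vha-10, vha-11, vha-14 and spin-1), where 19.3% and 14.7% of all genes were. V1 genes were again below 0 in 8 of 9 (median -0.09), V0 genes in 5 of 11 and lysosomal genes in 3 of 11. The V1 count came to 3 of 9 when libraries were rescaled to equal sums. That rescaling brought the V1 median to 0.011 and moved the median of all genes from -0.0052 to 0.086.

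The 2 genotypes share no library for the food effect. Of the 31 genes, 24 had the same sign in both, 15 lower and 9 higher on hns. The matching share over all genes is not given here, and some member signs changed with the processing, so the count is descriptive only. Averaged over genotypes, the member median was -0.037, beside -0.0067 for all genes. It turned to 0.012 after rescaling to equal sums, beside 0.037 for all genes, and to 0.018 after quantile normalization, beside -0.027. None passed by limma, where 1.76% of all genes did, and 4 had an unadjusted p under 0.05 (vha-5, lmp-2 and spin-2 higher, vha-18 lower), where 19% of all genes did. The lowest adjusted p values were 0.118 for vha-5 (0.17 ± 0.04, 95% interval 0.07 to 0.28) and 0.123 for lmp-2 (0.36 ± 0.09, 0.14 to 0.58). Within each genotype, the hns libraries lay above the BW25113 libraries for vha-5 and lmp-2 and below them for vha-8 and vha-14, where 11.1% and 7.08% of all genes did so in both genotypes. The E-subunit gene vha-8 was at 618 and 620 against 603 and 617 FPKM in wild type and at 610 and 667 against 598 and 594 in daf-16. The D-subunit gene vha-14 was at 495 and 499 against 477 and 485 in wild type and at 475 and 526 against 448 and 472 in daf-16.

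A p that misses the threshold does not show that levels were equal, so the intervals are given. They hold for 1 gene at a time under the main scaling and rest on 2 libraries a group. Other scalings move them: in daf-16, rescaling to equal sums moved the highest fitted V0 change from 0.14 to 0.24. For the 20 pump genes the 95% interval of the hns to BW25113 ratio of FPKM + 1 ran no lower than 0.78 and no higher than 1.35 in wild type, and from 0.779 to 1.22 in daf-16. Over all 31 genes every interval on the FPKM + 1 scale lay within 2-fold either way in both genotypes, and 28 in wild type and 29 in daf-16 lay within 1.5-fold. For genes of a few FPKM, such as spin-2, the limits on FPKM itself are wider than on this scale. To pass the threshold, a gene with the members' median standard error would have needed a 1.42-fold change in wild type, a 1.496-fold change in daf-16 or a 1.24-fold change in the average of both. Over the members, from the smallest to the largest standard error, the needed change ran from 1.31-fold to 2.60-fold in wild type, 1.37-fold to 2.99-fold in daf-16 and 1.19-fold to 1.81-fold in the average.

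The genotypes were compared on each food. On BW25113 none of the 31 passed, where 0.261% of all genes did, and none had an unadjusted p under 0.05, where 9.12% did. The median log2 difference was 0.03, beside 0.0080 for all genes, and both daf-16 libraries were above both wild-type libraries for 6 genes and below for 4 (vha-7, vha-18, unc-32 and ctns-1), where 23.5% and 16.3% of all genes were. On hns none passed, where 0.233% of all genes did, none had an unadjusted p under 0.05 (7.84% of all genes), the median was 0.02 beside -0.0046, and 2 genes (vha-4 and spin-3) were above and 7 below without overlap, where 17.5% and 17.3% of all genes were. After rescaling to equal sums the median on BW25113 was -0.11, as was that of all genes. The DNase gene nuc-1 was at 112 and 130 FPKM in wild-type worms on BW25113 and 96.6 and 118 in daf-16, and at 119 and 131 against 102 and 114 on hns. It overlapped on BW25113 and was lower without overlap on hns, with fitted differences of -0.18 ± 0.13 (adjusted p = 0.739) and -0.21 ± 0.13 (adjusted p = 0.754). The largest positive difference on hns was that of spin-3 (0.37 ± 0.18, adjusted p = 0.703) and the largest negative was that of spin-1 (-0.25 ± 0.12, adjusted p = 0.69). Each food effect in daf-16 and genotype effect on a shared food uses libraries in common, so these values are given side by side only. The interaction, the food effect in wild type minus that in daf-16, passed for none of the 31 by limma, where 0.0961% of all genes did, and none had an unadjusted p under 0.05 (3.7% of all genes).

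**Figure D4:**
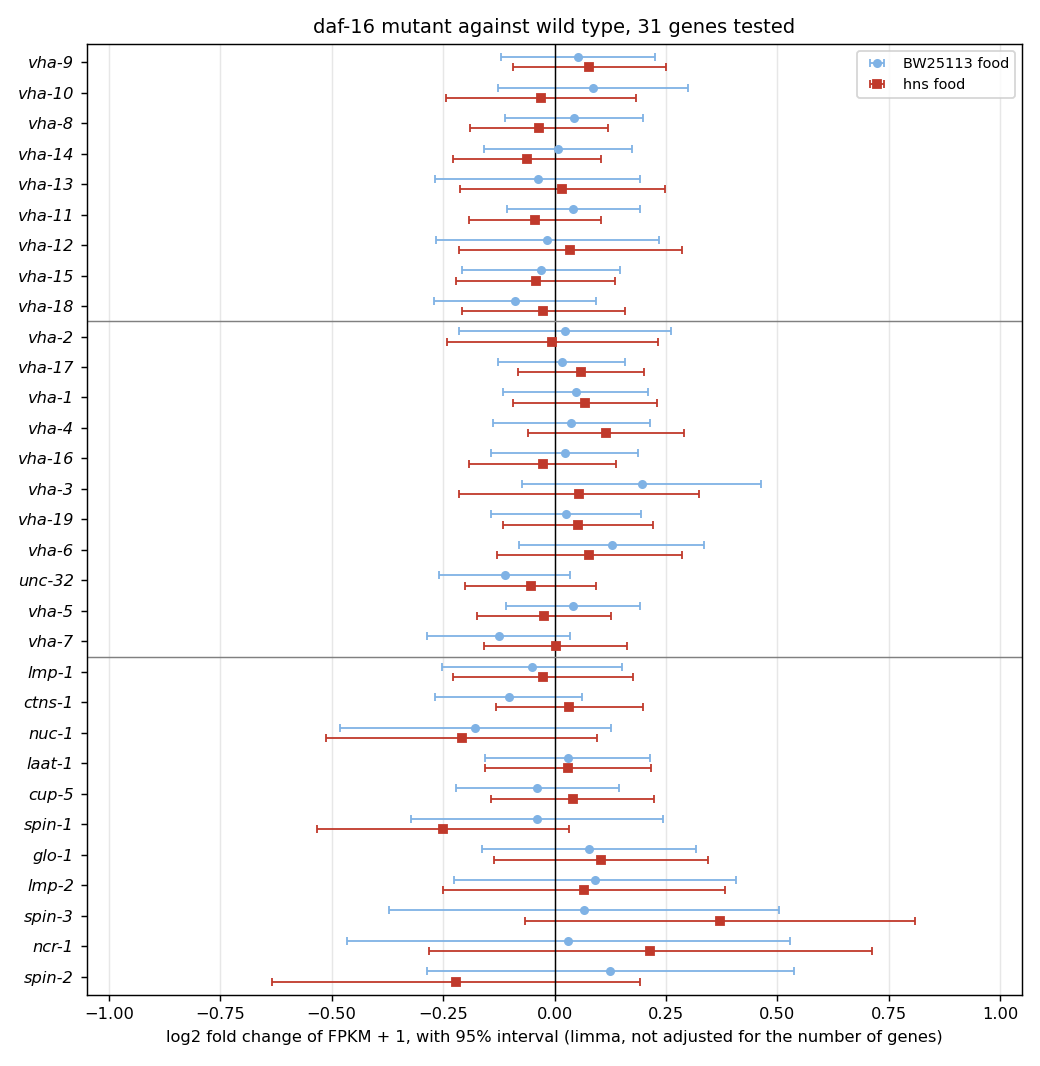
Log2 difference of FPKM + 1 between daf-16 and wild type for the 31 genes tested, on BW25113 and on hns food, with 95% limma intervals that are not adjusted for the number of genes. Every interval includes 0.

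Markers of cell types gave values beside vha-5 and lmp-2. Of all genes tested, 0.872% passed by limma in wild type, 0.405% in daf-16 and 1.76% in the average. An unadjusted p under 0.05 was reached by 15.7%, 6.5% and 19%. Of 14 hypodermis and cuticle markers tested, 12 were above 0 on hns in wild type (median 0.85) and 3 passed: wrt-10, sqt-3 and dpy-17, each more than 3-fold higher (adjusted p = 0.0482, 0.023 and 0.0266). With 1 library left out at a time, wrt-10 passed in 0 of 8 fits and the collagen genes sqt-3 and dpy-17 in 4 of 8, losing the call without any 1 of the wild-type libraries (adjusted p 0.056 to 0.138). In daf-16 none of the 14 passed (median 0.31, 4 with an unadjusted p under 0.05). Their summed FPKM ranged from 1097 to 1318 in wild type on BW25113, 1185 to 1901 on hns, 1413 to 2102 in daf-16 on BW25113 and 1920 to 1942 on hns. Markers of the excretory canal, a known site of vha-5 expression, summed to 197 to 220 FPKM in wild-type worms on BW25113 and 225 to 256 on hns, and to 223 to 228 and 239 to 274 in daf-16, with none of 7 passing by limma (2 and 1 with an unadjusted p under 0.05). Intestinal markers summed to 3094 to 3230 FPKM on BW25113 and 3738 to 3768 on hns in wild type, and to 3358 to 3397 and 3666 to 3683 in daf-16. None of these 12 passed by limma (2 and 3 with an unadjusted p under 0.05), and 2 of them (asp-1 and cpr-1) are also hydrolases counted below. All 15 germline and oocyte markers were below 0 in wild type (median -0.17), none passing by limma (1 with an unadjusted p under 0.05), and 11 of 15 in daf-16 (median -0.07, 0). For 11 muscle, 12 neuron, 16 sperm and 6 vitellogenin genes the medians were 0.18, 0.30, -0.18 and -0.19 in wild type and 0.10, 0.24, -0.75 and -0.04 in daf-16, and none passed by limma in either genotype (3, 0, 0 and 1 with an unadjusted p under 0.05 in wild type, 1, 0, 3 and 0 in daf-16). In the average of both genotypes, where vha-5 and lmp-2 had their lowest p, 4 hypodermis and cuticle markers passed (dpy-7, sqt-3, dpy-17 and wrt-10, 2.08-fold to 2.28-fold higher) and 1 muscle marker, hlh-1, did (1.63-fold higher, adjusted p = 0.031). With 1 library left out at a time, sqt-3 passed in 4 of 8 fits of the average, dpy-17 in 2, dpy-7 and hlh-1 in 1 each and wrt-10 in 0. No marker of these lists was at 0 in any library. The part of any of these tissues in the vha-5 and lmp-2 values was not tested.

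Other lysosomal lists were set beside the members. All lists, members included, were chosen with earlier results of these data known, so differences between lists are descriptive only. Of all genes tested, 0.872% passed by limma in wild type, 0.405% in daf-16 and 1.76% in the average. Among 46 genes listed as lysosomal hydrolases and tested, 4 passed in each genotype. RNA levels of whole worms do not show whether the products of these genes act in lysosomes or elsewhere. The aspartic protease gene asp-10 was at 680 and 681 FPKM in wild-type worms on BW25113 and 95.3 and 87.1 on hns, a 7.40-fold fall (adjusted p = 1.86e-05). In wild type, cpr-4 was 5.27-fold lower on hns (adjusted p = 0.0011) and the other cathepsin B-like gene, cpr-5, 4.51-fold lower (adjusted p = 0.0167), while asp-14 rose 5.01-fold from 32.8 and 33.4 FPKM to 169 and 171 (adjusted p = 0.000696). The same 4 passed in daf-16, where cpr-5 fell 7.79-fold. Without 1 library at a time all 4 kept their call in both genotypes except cpr-5 in wild type, whose adjusted p was 0.0876 and 0.0945 without replicates 1 and 2 on BW25113 and 0.0646 without replicate 2 on hns. Over the whole hydrolase list the median log2 change was 0.18 in wild type and 0.11 in the mutant. Averaged over genotypes, asp-10, cpr-5 and cpr-4 passed as lower on hns and asp-14 as higher. Also higher were lipl-2 (2.37-fold), aagr-1 (1.34-fold), lipl-5 (1.32-fold), cpr-3 (1.26-fold) and asp-6 (1.23-fold). For lipl-2, aagr-1, lipl-5, cpr-3 and asp-6 the limma adjusted p was 0.0322 to 0.0484, and none kept the call under every alternative. Of 20 other lysosomal and gut granule membrane genes, 1 passed: the heme transporter gene hrg-1 fell 4.97-fold in wild type, from 225 and 190 FPKM to 39.9 and 41.8, and 5.12-fold in daf-16.

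For the lists that follow, 15.7% of all genes tested had an unadjusted limma p under 0.05 in wild type and 6.5% in daf-16. None of 31 lysosome trafficking genes passed by limma in either genotype (1 and 0 with an unadjusted p under 0.05), with medians of -0.10 and -0.06. None of 24 autophagy genes passed (1 and 0 with an unadjusted p under 0.05, medians -0.03 and -0.01), nor did any of 10 mitochondrial ATP synthase genes, the other rotary ATPase of the cell (0 and 0, medians -0.07 and -0.10). Among 20 genes of TORC1 signalling and HLH-30 regulation (medians -0.12 and -0.04), none passed in wild type by limma (5 with an unadjusted p under 0.05), and mxl-3, a transcriptional repressor of lysosomal lipase genes, passed in daf-16 and in the average of both genotypes. It was at 68.7 and 57.9 FPKM in wild-type worms on BW25113, 42.5 and 43.1 on hns, 48.2 and 50.7 in daf-16 on BW25113 and 29.6 and 29.3 on hns, lower in both hns libraries each time. In the average, mxl-3 fell 1.56-fold (limma adjusted p = 0.00955). The log2 change there ran from -0.70 to -0.58 over the alternatives, not all of which kept the call. Its fall was 1.66-fold in daf-16 (adjusted p = 0.0381), passing in 2 of 8 fits without 1 library, those without either wild-type BW25113 library (adjusted p 0.0862 to 0.29 in the other 6), and the wild-type value was -0.55 (adjusted p = 0.0595). The gene hlh-30, whose TFEB-like product activates lysosomal genes and which was chosen after its values were seen, was at 26.5 and 21.7 against 32.6 and 24.9 FPKM in wild type and 23.1 and 23.9 against 27.4 and 23.6 in daf-16, overlapping in both, with a fitted change in wild type of 0.24 ± 0.16 (adjusted p = 0.456).

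**Figure D5:**
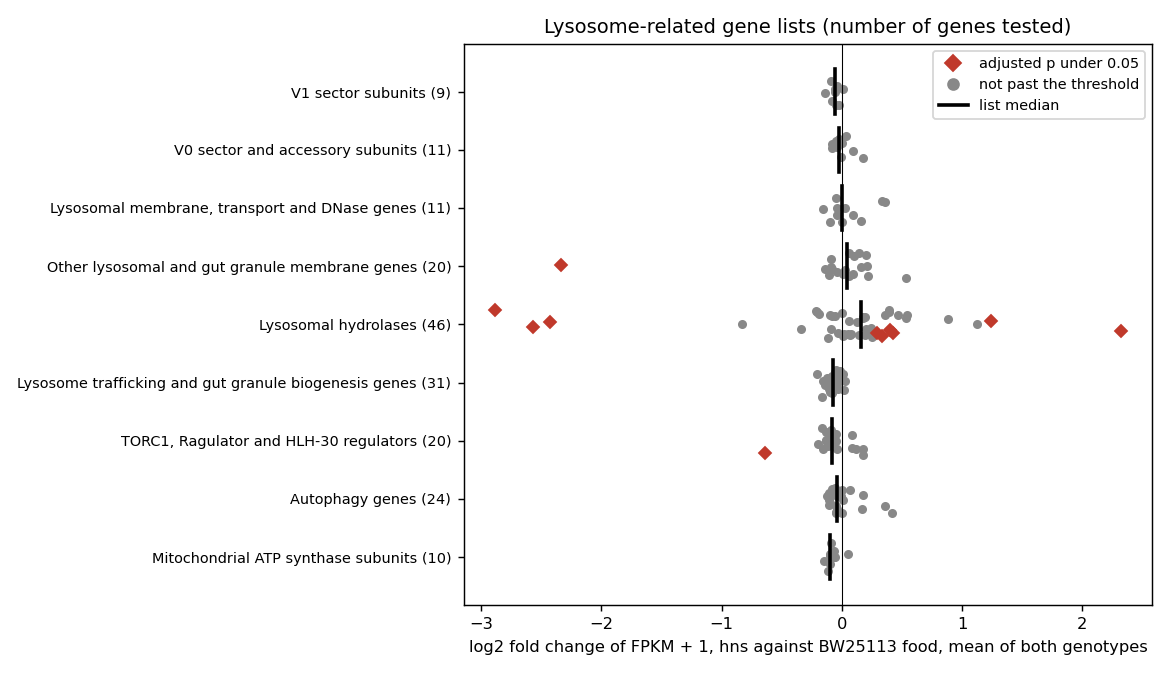
Log2 fold change of FPKM + 1 on hns against BW25113 food, averaged over both genotypes, for each gene of 9 lists, with the number tested in brackets, a bar at each list's median and diamonds for genes past the adjusted threshold. The 3 lists of pump and lysosomal membrane members hold no diamond. The hydrolases spread from -2.88 to 2.32 and hold 9, some lower and some higher on hns. All lists were chosen with earlier results of these data known, so differences between them are descriptive only.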

How the data were processed

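The deposited table gave FPKM per gene for 8 libraries. The authors used TopHat2 2.0.11 and Cufflinks 2.2.1 and build ce10, as per the submitters' processing notes. Which annotation was used, and whether strand was, is not given in the sources used here. Members and all other lists (pathway genes and markers of intestine, excretory canal, hypodermis, muscle, neuron, germline, sperm and yolk) were chosen with earlier results of these data known. Every member was described, with full statistics for the 2 largest food changes in each direction and for subunit families; vha-5, vha-7, vha-8, vha-14, lmp-1, ctns-1 and nuc-1 were given further statistics after their values were seen. In other lists, at most 4 genes past the threshold per comparison were named. The hydrolases were an exception: all those past it in the average of both genotypes were named after their values were seen. FPKM + 1 was log2 transformed and 14564 genes that reached 1 FPKM in 2 or more libraries were kept. One limma 3.58.1 model (R 4.3.3) with a mean-variance trend and 1 mean per group was fitted to all 8 libraries, with 4 residual and 2.32 prior degrees of freedom. P-values were two-sided and Benjamini-Hochberg adjusted over all genes tested; errors after ± are standard errors. The fit was run on simulated data with independent noise in each gene. Those data held no effect shared by the genes of a library, so the run cannot show how the fit handles one. Fragment depth was estimated by matching low FPKM to whole fragments with WBcel235 transcript lengths: 51.7% to 54.5% of these values came within 0.15 of a whole number, where 30% would by chance. Depth is therefore approximate, and no count test was run. Coordinates and sequences were not used here.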

Additional observations from a re-analysis of the deposited data

How the results depend on the processing

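No member passed under any alternative: pseudocounts of 0.1 and 5, no filter or at least 5 FPKM, rescaling to equal sums, quantile normalization, the replicate number as a block, robust moderation, the compared libraries alone, each library left out in turn, and (added after seeing the data) leaving out genes listed at 0 in any library. The lowest adjusted p over these was 0.0973 for spin-2 in wild type and 0.0785 for vha-5 averaged over genotypes, both with the replicate block, and 0.384, 0.17, 0.235 and 0.771 for the food effect in daf-16, the genotype effects on BW25113 and hns, and the interaction. The direction of the member median was not stable. Quantile normalization gave 0.022 for food in wild type and 0.018 averaged over genotypes. Rescaling gave 0.088 for food in daf-16, -0.11 for genotype on BW25113, -0.12 for the interaction and 0.012 averaged over genotypes; it moved the median of all genes to 0.086, -0.11, -0.081 and 0.037. With 1 library left out, the median ran from -0.065 (without daf-16 on BW25113 replicate 1) to 0.038 (without its replicate 2) for food in daf-16, -0.053 to 0.069 for genotype on BW25113, -0.060 to 0.082 for the interaction, -0.018 to 0.017 for genotype on hns, -0.058 to 0.0042 averaged over genotypes and -0.037 to -0.032 for food in wild type. The cause was not tested.

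Between 26 and 54 of the 525 to 556 member values per comparison changed sign under an alternative, none of them past the threshold. Same-numbered libraries are not said to be paired. Deviations of same-numbered libraries correlated at 0.022 to 0.16 over all genes and at 0.14 to 0.66 over the 31 members. The replicate block raised the genes called in wild type from 127 to 488, and averaged over genotypes from 256 to 796. Other settings gave 60 (no filter) to 288 (without genes at 0) in wild type and 140 to 442 averaged over genotypes, and leaving out 1 library gave 33 to 94 and 75 to 163. For food in daf-16 (59), leaving out 1 library gave 27 to 64, and for the interaction (14), settings gave 0 to 31. For genotype on BW25113 (38) and on hns (34), settings gave 12 to 41 and 10 to 46. Precision was limited by 2 libraries a group and, for ncr-2 and spin-2, by few fragments.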
